A study of Rattus norvegicus with 9 samples.

Results

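Astrocyte marker genes were followed through sexual maturation in the hypothalamus of the female rat. The 8 genes are Gfap, Aqp4, Aldh1l1, Gjb6, Gja1, Ntsr2, S100b and Aldoc, chosen by name out of 14217 genes that the arrays measure with at least 1 probe set of a single gene symbol. They have 12 such probe sets: 3 for Aqp4, 3 for Gja1 and 1 for each of the other genes. The study hybridised 9 Affymetrix rat expression arrays, each with RNA from the hypothalamus of 1 rat. Of these, 3 arrays were from juveniles of day 26, labelled as control samples, 3 from early pubertal animals at day 29 and 3 from late pubertal animals at day 31. All animals were normal females, so the stages differ in age as well as in maturation, and their strain is not given in the sources used here.

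Astrocytes are glial cells that take up transmitter and potassium, exchange water and metabolites with blood vessels and are joined into networks by gap junctions. In the hypothalamus they also wrap GnRH neurons, whose peptide makes the pituitary secrete gonadotropins, and signals from glia to those neurons are known to take part in the onset of puberty. The 8 genes cover several sides of this cell type: a cytoskeletal filament (Gfap), enzymes (Aldh1l1 and Aldoc), membrane channels (Aqp4, Gjb6 and Gja1), a peptide receptor (Ntsr2) and a calcium-binding protein (S100b). In a whole hypothalamus, fewer cells of a type and less RNA per cell cannot be told apart.

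All 8 genes had a probe set above the level at which probe sets were tested, a mean log2 level of 6.30, so the labelled tissue holds the markers of this cell type. Of the 12 probe sets, 11 were among the 18625 tested. Levels are log2(signal + 16) after quantile normalization, which gives every array the same distribution of values, so each difference is relative to all probe sets. The median deposited signal per array ran from 79.8 (early pubertal replicate 10) to 122 (late pubertal replicate 20). The beta-actin control's 3′ signal divided by its 5′ signal, a measure of how complete the labelled RNA is, ran from 2.14 to 3.24. It overlapped between all stages. The same ratio of the GAPDH control ran only from 0.95 to 1.02.

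After quantile normalization most of the 8 marker genes stood slightly higher in pubertal than in juvenile animals, without any of them passing the test. They were chosen with earlier results of these data known, so their shared direction is not an independent observation. With each gene taken at its brightest probe set, 7 of 8 genes were higher in early pubertal than in juvenile animals (2 of 8 at the deposited level), with a median log2 difference of 0.12 and a range from −0.05 (Gja1) to 0.33 (Aldh1l1), while 49.6% of all tested probe sets were higher. In late pubertal animals 7 of 8 were again higher than in juveniles, with a median of 0.13 and a range from −0.04 (Gja1) to 0.31 (Aldh1l1), again beside 49.6% of all probe sets. Between late and early pubertal animals 5 genes were higher and 3 lower, with a median of 0.01, and 50.1% of all probe sets were higher. Over all tested probe sets the medians were −0.0014, −0.0015 and 0.00037. The 5th to 95th percentiles of all probe sets ran from −0.28 to 0.27 in the first comparison and from −0.28 to 0.29 in the second, and these ranges held every marker gene's value except that of Aldh1l1. The 2 comparisons with juvenile animals share the juvenile arrays. Of 25 other astrocyte genes tested, 12 were higher and 13 lower in each of them.

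After Benjamini-Hochberg adjustment over all tested probe sets, limma called 0 of the 11 marker probe sets in each of the 3 comparisons and in the F test over all stages, where 0% of all tested probe sets were called. The markers' adjusted p in limma was 0.994 or above for early pubertal minus juvenile, 0.9998 for late pubertal minus juvenile and 0.914 or above for late minus early pubertal. At an unadjusted p under 0.05, limma held 2 of the 11 probe sets early pubertal minus juvenile (Gfap and Aldh1l1), where 4.46% of all probe sets did, and 4 late pubertal minus juvenile (Gfap, Aldh1l1, Gjb6 and Ntsr2), where 4.14% did. In the comparison of late with early pubertal animals it held 0, where 5.21% did, and in the F test over all stages 3 (Aldh1l1, Gjb6 and Ntsr2), where 4.22% did. Early pubertal arrays lay entirely above juvenile arrays for 2 of the 11 probe sets (Aldh1l1 and S100b), beside 3.86% of all tested probe sets. Late pubertal arrays lay entirely above juvenile arrays for 4 of the 11 (Gfap, Aldh1l1, Gjb6 and Ntsr2), beside 5.90%, and entirely above early pubertal arrays for 1 (Ntsr2), beside 5.97%. No marker probe set lay entirely lower at the later stage in any comparison, beside 4.43%, 5.52% and 5.37% of all probe sets. These separations depended on the scaling, and shares of all probe sets were counted for the reported normalization only. In the deposited signals 0 of the 11 lay entirely above juveniles in either pubertal stage. There 6 lay entirely above early pubertal arrays in late pubertal animals, but the median of all tested probe sets was also 0.22 higher. After centring each array on its median, the early pubertal arrays lay above juveniles for 1 (Gfap), the late pubertal arrays for 2 (Gfap and Aqp4 1372190_at), and 0 separated late from early pubertal animals.

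The direction of the early pubertal difference depended on how the arrays were scaled. At the deposited level the median of all tested probe sets was −0.24 early pubertal minus juvenile. Deposited-level values of genes and lists given below include this shift. At that level only Gfap and Aldh1l1 of the 8 genes stood higher than in juveniles and the genes' median was −0.04, yet all 8 lay above the median of all probe sets, by 0.20 in the median. With each array centred on its median, 8 of 8 genes were higher, with a median of 0.17. Late pubertal minus juvenile, 8 of 8 genes were higher at the deposited level and 7 of 8 after centring, with medians of 0.14 and 0.13, although arrays of these 2 stages overlapped for all 8 at the deposited level and for 6 of 8 after centring. The difference between late and early pubertal animals had no settled direction, with medians of 0.19 at the deposited level and −0.04 after centring. At the deposited level the median of all tested probe sets was 0.22 in this comparison, and 2 of the 8 genes lay above it.

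**Figure D1:**
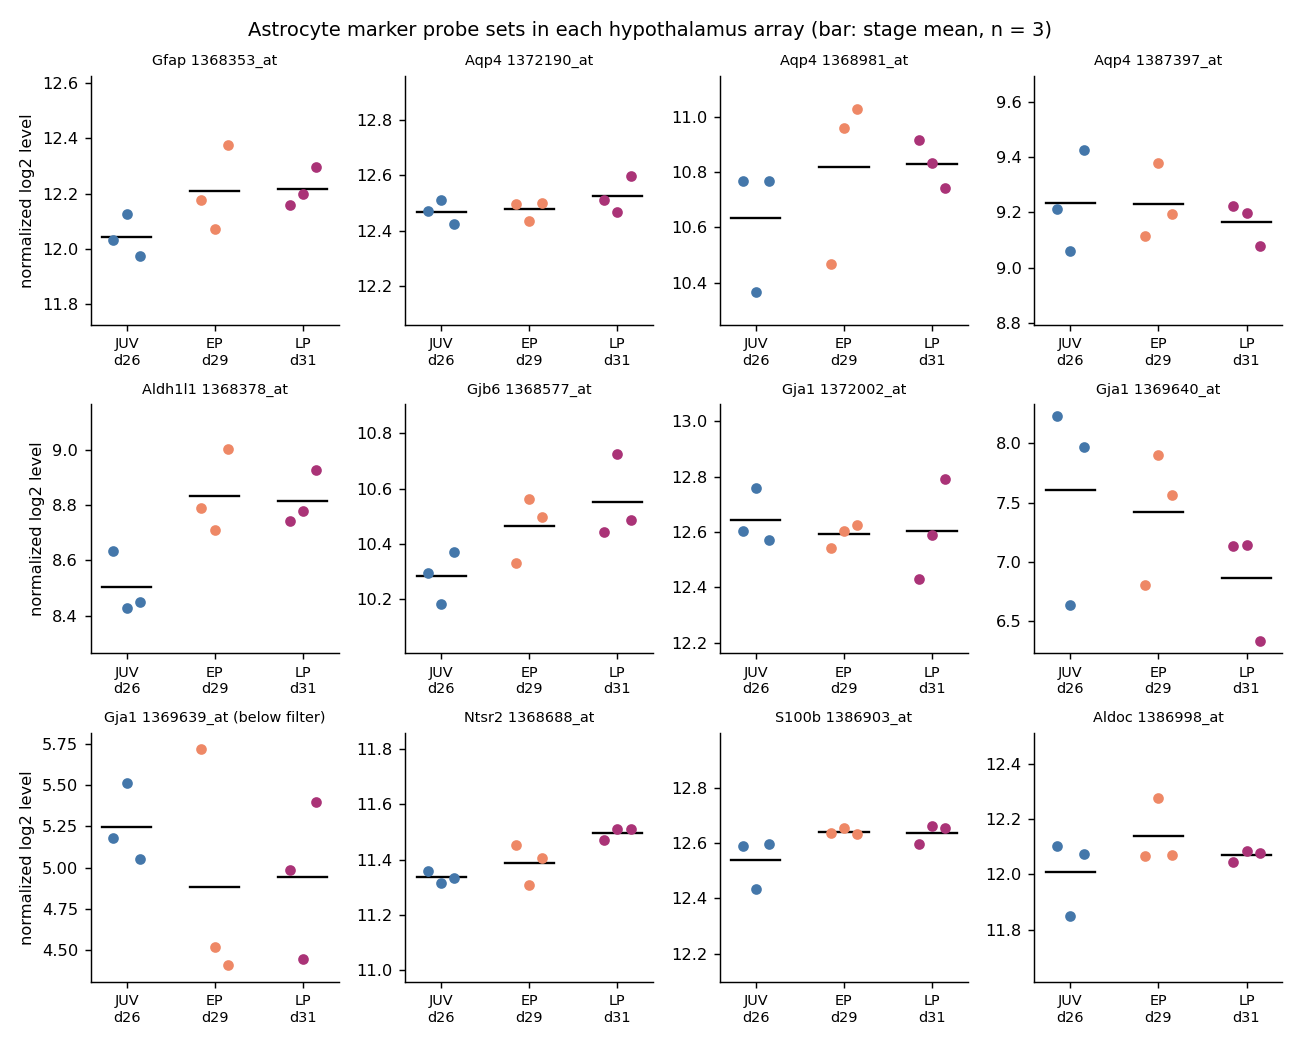
Normalized level (log2) of each of the 12 marker probe sets on each of the 9 arrays, by stage (juvenile day 26, early pubertal day 29, late pubertal day 31; n = 3 each), with a bar at the stage mean and a scale of its own in each panel. The 3 juvenile points of Aldh1l1, between 8.43 and 8.63, lie under all 6 pubertal points, between 8.71 and 9.0, a separation that the deposited level and median centring do not keep.

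**Figure D2:**
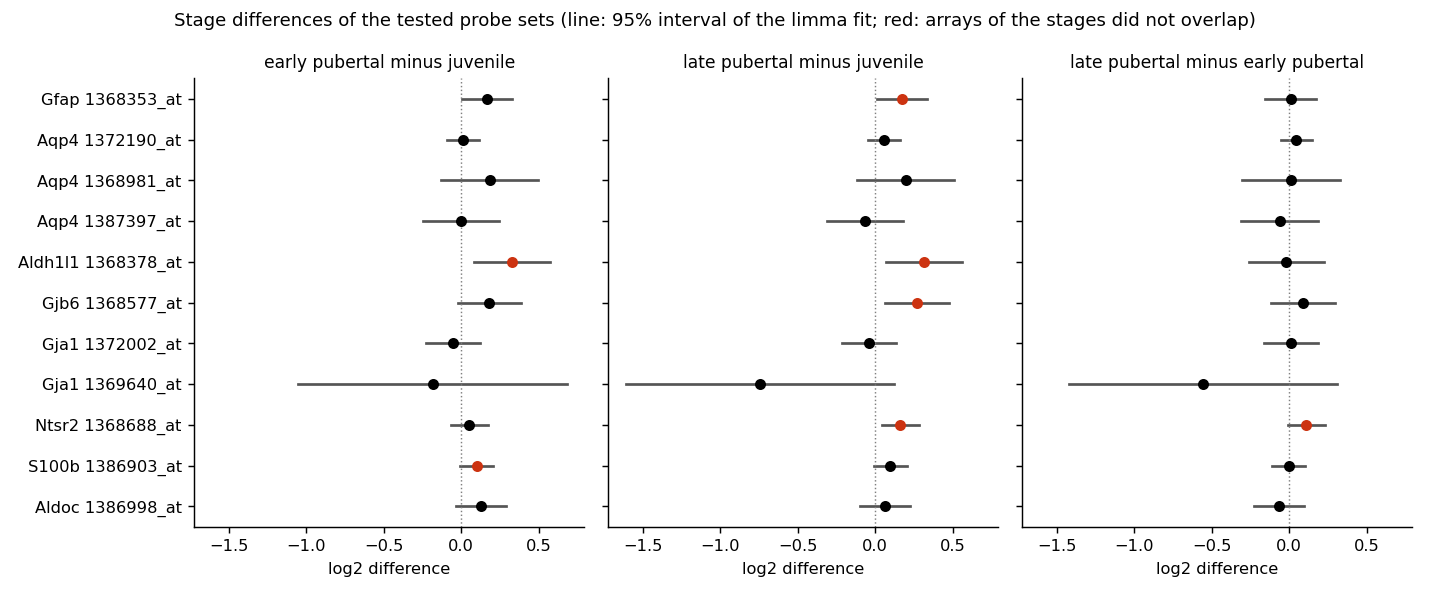
Log2 difference of each of the 11 tested marker probe sets in the 3 comparisons between stages, with the 95% interval of the limma fit (n = 3 arrays per stage) and with probe sets whose stages do not overlap at this normalization in red. Most points lie to the right of 0 in both comparisons with juveniles, the widest intervals are those of the dim Gja1 probe set, and at the deposited level 6 of the 8 genes' early pubertal differences are negative.

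Some members moved together from array to array, and the promoters of the 2 most strongly related pairs, Gfap with Aldh1l1 and S100b with Aldoc, are shown here. The bases are those of RefSeq on build GRCr8, 5′ to 3′ on the gene's own strand, up to the base before the gene's record begins. Gfap is at chr10:88361662-88361911 on the minus strand, Aldh1l1 at chr4:124616970-124617181 on the plus strand, S100b at chr20:12381160-12381331 on the minus strand and Aldoc at chr10:63715294-63715543 on the plus strand.
Gfap: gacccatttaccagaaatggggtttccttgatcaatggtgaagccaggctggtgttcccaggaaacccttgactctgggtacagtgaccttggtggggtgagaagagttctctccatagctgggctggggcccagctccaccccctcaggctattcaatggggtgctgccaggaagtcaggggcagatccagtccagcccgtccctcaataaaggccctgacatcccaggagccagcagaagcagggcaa
Aldh1l1: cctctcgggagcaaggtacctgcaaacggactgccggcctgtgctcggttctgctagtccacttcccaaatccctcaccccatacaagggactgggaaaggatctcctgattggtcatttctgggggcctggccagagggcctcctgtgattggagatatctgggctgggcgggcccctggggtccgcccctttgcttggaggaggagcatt
S100b: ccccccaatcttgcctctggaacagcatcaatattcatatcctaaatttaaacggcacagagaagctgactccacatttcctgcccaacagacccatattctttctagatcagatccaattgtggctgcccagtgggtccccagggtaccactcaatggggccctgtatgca
Aldoc: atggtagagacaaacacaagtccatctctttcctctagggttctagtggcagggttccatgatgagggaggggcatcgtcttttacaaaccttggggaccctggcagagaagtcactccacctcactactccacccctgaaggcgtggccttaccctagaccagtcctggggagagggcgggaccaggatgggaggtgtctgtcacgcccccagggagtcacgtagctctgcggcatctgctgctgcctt

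The 250 bases before the transcript start that RefSeq's promoter table gives for each of the 8 genes were searched on both strands for 5 motifs: the STAT palindrome TTCNNNGAA, the NFI motif TTGGC, the SOX motif AACAAT, the AP-1 motif TGANTCA and the TATA box TATAAA. For several genes that start lies inside the gene's record, which begins further upstream: of the bases searched, 250 were inside the record for Gjb6, 192 for Aqp4, 78 for S100b, 74 for Gja1, 38 for Aldh1l1 and 0 for Gfap, Ntsr2 and Aldoc. NFI, STAT and SOX proteins are transcription factors known from astrocyte development. A STAT match stood before Ntsr2, 54 to 46 bases from the start, and 7.67% of 33469 promoters held one. An AP-1 match stood 58 to 52 bases before the Gja1 start, inside the gene's record, and 6.34% of promoters held one. The SOX motif and the TATA box, held by 10.3% and 12.9% of promoters, had no match before any of the 8. The NFI motif, held by 40.3% of promoters, was matched before S100b only, where it occurs 2 times in a row within chr20:12381110-12381132 on the minus strand, 51 to 29 bases before the start, inside the gene's record. The capitals mark both matches.
S100b site: aaccTTGGCccctaTTGGCagtc

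A match describes the letters only. GC content of these 250 bases was 57.6% for Gfap, 60.8% for Aldh1l1, 54.8% for S100b and 58.0% for Aldoc, beside a median of 51.2% over all promoters. The counts of CpG were 1, 7, 5 and 6, beside a median of 5.

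Gfap (probe set 1368353_at) encodes the intermediate filament protein by which astrocytes are most often recognised, and its gene lies at chr10:88352987-88361661 on GRCr8. Its log2 level was 12.03, 12.13 and 11.98 in the juvenile arrays (replicates 1, 2 and 3), 12.18, 12.07 and 12.38 in the early pubertal arrays (replicates 7, 8 and 10), and 12.16, 12.20 and 12.30 in the late pubertal arrays (replicates 12, 14 and 20). The deposited signals behind these were 4631, 4480 and 3857, then 4508, 3929 and 4903, then 4494, 4860 and 5615. Early pubertal replicate 8 fell within the juvenile range, whereas all late pubertal arrays lay above it after normalization but not at the deposited level, where juvenile replicate 1 was above late pubertal replicate 12. The stage means were 12.04 ± 0.08 (SD, n = 3), 12.21 ± 0.15 and 12.22 ± 0.07. Late pubertal minus juvenile, the log2 difference was 0.17 (SE 0.07, 95% interval 0.01 to 0.33), a fold of 1.13, with an adjusted p of 0.9998 in limma. Early pubertal minus juvenile it was 0.16 (95% interval 0.0026 to 0.33), and 0.08 without early pubertal replicate 10, the highest array of that stage. It was 0.04 at the deposited level and 0.25 after median centring. Late and early pubertal means differed by 0.0080 (95% interval −0.15 to 0.17), and by −0.06 after median centring.

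The partners of the Gfap filament did not pass the test either: 0 of 4 were called in any comparison, 2 were higher and 2 lower early pubertal minus juvenile (0 and 4 at the deposited level), and 3 were higher and 1 lower late pubertal minus juvenile (4 and 0). Vim, the vimentin that forms filaments together with Gfap, differed by 0.11 ± 0.13 (SE) and 0.12 ± 0.13. Synm, the synemin that links filaments, differed by 0.07 ± 0.18 and 0.42 ± 0.18. Nes, the nestin of progenitor cells, and Plec, the linker plectin, stood at −0.08 ± 0.22 and −0.04 ± 0.16 early pubertal minus juvenile and at −0.02 ± 0.22 and 0.10 ± 0.16 late pubertal minus juvenile.

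Aldh1l1 (1368378_at; chr4:124617182-124663674) encodes a folate enzyme, formyltetrahydrofolate dehydrogenase, that marks astrocytes throughout the brain. Its log2 level was 8.63, 8.43 and 8.45 in juvenile, 8.79, 8.71 and 9.0 in early pubertal and 8.74, 8.78 and 8.93 in late pubertal arrays, in the same order of replicates. All 6 pubertal arrays lay above all 3 juvenile arrays, and the pubertal stages overlapped. The means were 8.50 ± 0.11, 8.83 ± 0.15 and 8.81 ± 0.10 (SD, n = 3). The difference from juveniles was 0.33 (SE 0.11, 95% interval 0.08 to 0.57), a fold of 1.26, in early pubertal animals. In late pubertal animals it was 0.31 (SE 0.11, 95% interval 0.07 to 0.56), a fold of 1.24, and limma's adjusted p was 0.994 and 0.9998. Leaving out any single array kept the early pubertal difference between 0.24 and 0.39 and the late pubertal difference between 0.26 and 0.38. At the deposited level the signals were 449, 346 and 331, then 419, 349 and 410, then 402, 424 and 552. There the stages overlapped, as they did after median centring, with the deposited signal of juvenile replicate 1 above that of every early pubertal array.

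Other enzymes of folate one-carbon metabolism, the pathway that moves formyl and methylene groups between amino acids and nucleotides, were represented by 6 tested genes of 13 listed. Of these, 5 were higher and 1 lower in each comparison with juveniles, with median differences of 0.06 and 0.03, and 0 were called. At the deposited level 1 was higher and 5 lower in early pubertal animals (median −0.20), and 4 and 2 in late pubertal animals (median 0.02). After median centring the counts were 4 and 2 (median 0.02) and 3 and 3 (median 0.0045). Mthfd1l, which makes formate in mitochondria, stood 0.52 ± 0.19 higher in early pubertal and 0.20 ± 0.19 higher in late pubertal animals than in juveniles. The other 5 lay within 0.15 of 0 on the log2 scale in both comparisons.

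Gjb6 (1368577_at; chr15:35400147-35410649) encodes connexin 30, a gap junction protein that appears in grey matter astrocytes as they mature. Its level was 10.30, 10.18 and 10.37 in juvenile, 10.33, 10.56 and 10.50 in early pubertal and 10.44, 10.73 and 10.49 in late pubertal arrays. Early pubertal replicate 7 lay inside the juvenile range and all late pubertal arrays above it, but late pubertal and juvenile arrays overlapped at the deposited level and after median centring. Stage means of 10.28 ± 0.09, 10.46 ± 0.12 and 10.55 ± 0.15 (SD, n = 3) gave a late pubertal difference from juveniles of 0.27 (SE 0.09, 95% interval 0.06 to 0.47), a fold of 1.21, with a limma adjusted p of 0.9998. The early pubertal difference was 0.18 (95% interval −0.02 to 0.39), and −0.06 at the deposited level. The late pubertal level stood 0.09 above the early pubertal one (95% interval −0.12 to 0.29).

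Gja1 (chr20:36302490-36315010) encodes connexin 43, the other main gap junction protein of astrocytes, and its probe sets behaved unlike each other. The brightest, 1372002_at, stood at 12.60, 12.76 and 12.57 in juvenile, 12.54, 12.60 and 12.63 in early pubertal and 12.43, 12.59 and 12.79 in late pubertal arrays. The lowest and the highest value were both late pubertal, the stages overlapped, and the differences from juveniles were −0.05 (95% interval −0.23 to 0.12) and −0.04 (−0.21 to 0.13). Each was reversed by a change of scaling: early pubertal to 0.07 after median centring and late pubertal to 7.2e-05 at the deposited level. The second, 1369640_at, read 8.23, 6.63 and 7.97, then 6.81, 7.90 and 7.56, then 7.13, 7.14 and 6.33, so juvenile arrays alone spanned most of the range. Its spread within stages was at the 99.4th percentile of all tested probe sets. Late pubertal minus juvenile it gave −0.74 (SE 0.40, 95% interval −1.61 to 0.12), and limma's adjusted p was 0.9998. That value was −1.23 without juvenile replicate 2 and −0.43 without juvenile replicate 1. The early pubertal value of −0.18 (95% interval −1.05 to 0.68) was −0.67 without juvenile replicate 2 and 0.13 without early pubertal replicate 7. The third, 1369639_at, was too dim to be tested, with deposited signals between 3.05 and 36.7.

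Over the 9 arrays the log2 levels of the 2 tested Gja1 probe sets had a Pearson r of −0.42. The second probe set was low where the 3′ to 5′ ratio of beta-actin was high: it had its lowest values, 6.33 and 6.63, on the arrays with the highest ratios, 3.24 (late pubertal replicate 20) and 3.16 (juvenile replicate 2). Its r with the log2 ratio was −0.68. A limma slope on that ratio, with stages in the fit, was −2.14 ± 0.64 (SE) with an adjusted p of 0.420, and 0% of all probe sets were called. Without stages in the fit, 13.6% of all tested probe sets had an unadjusted limma p under 0.05 for such a slope. The part of RNA quality in this spread was not tested beyond these slopes.

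Other connexins, pannexins and the scaffold protein Tjp1 gave 6 tested genes of 11 listed and 0 called. Early pubertal minus juvenile 1 was higher and 5 lower, with a median of −0.09, and late pubertal minus juvenile 3 were higher and 3 lower, with a median of 0.04. Gjb2, connexin 26 of astrocytes and the meninges, stood at −0.16 ± 0.16 and 0.15 ± 0.16. Gjb1, connexin 32 of oligodendrocytes, stood at 0.08 ± 0.22 and 0.30 ± 0.22. Panx1, a channel through which cells release ATP, stood at −0.23 ± 0.13 and −0.36 ± 0.13.

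Aqp4 (chr18:6782389-6799034) encodes the water channel that is concentrated in astrocyte endfeet around vessels. Its brightest probe set, 1372190_at, read 12.47, 12.51 and 12.42 in juvenile, 12.50, 12.44 and 12.50 in early pubertal and 12.51, 12.47 and 12.60 in late pubertal arrays. The stages overlapped, and the differences from juveniles were 0.01 (95% interval −0.09 to 0.11) and 0.06 (−0.05 to 0.16), so a change of more than 0.16 in either direction lay outside both intervals. At the deposited level the early pubertal value was −0.11. Probe set 1368981_at read 10.77, 10.37 and 10.77, then 10.47, 10.96 and 11.03, then 10.91, 10.83 and 10.74, with differences of 0.18 (−0.13 to 0.50) and 0.20 (−0.12 to 0.51). The early value was −0.05 at the deposited level, and without juvenile replicate 2, the lowest array, the early and late values were 0.05 and 0.06. Without early pubertal replicate 7 the early value was 0.36. Probe set 1387397_at read 9.21, 9.06 and 9.43, then 9.12, 9.38 and 9.19, then 9.22, 9.20 and 9.08, with differences of −0.0035 (−0.25 to 0.24) and −0.07 (−0.31 to 0.18). No Aqp4 probe set separated any pair of stages after quantile normalization. All 3 separated late from early pubertal arrays at the deposited level, by 0.22, 0.21 and 0.17, where the median of all tested probe sets was 0.22. After median centring 1372190_at separated late pubertal from juvenile arrays.

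The 3 Aqp4 probe sets did not follow each other from array to array. Over the 9 arrays 1372190_at had a Pearson r of −0.81 with 1387397_at and −0.21 with 1368981_at, while the last pair had an r of 0.55. With the log2 beta-actin ratio, r was 0.78 for 1372190_at and −0.63 for 1387397_at. The limma slope on that ratio, with stages in the fit, was 0.19 ± 0.09 (SE) for 1372190_at with an adjusted p of 0.475, and −0.39 ± 0.23 for 1387397_at with an adjusted p of 0.557. Where each probe set lies along its transcript was not analysed here.

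**Figure D3:**
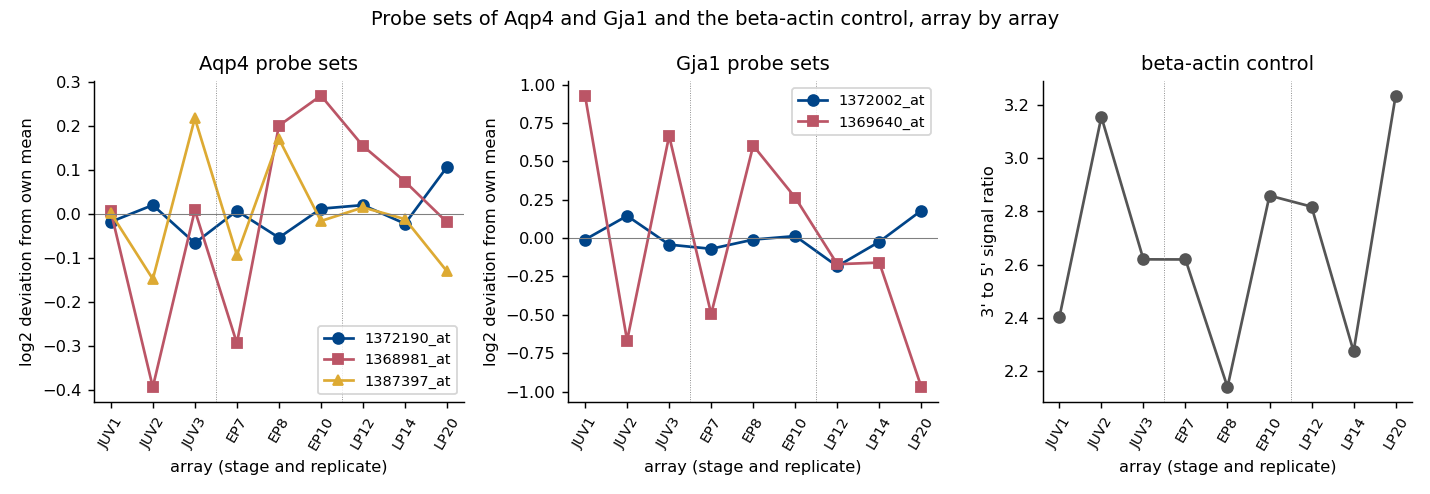
Deviation of each tested probe set of Aqp4 (3) and Gja1 (2) from its own mean over the 9 arrays (log2), beside the beta-actin 3′ to 5′ ratio on each array. The dim Gja1 probe set is lowest on late pubertal replicate 20 and juvenile replicate 2, where the ratio is 3.24 and 3.16, and probe sets of 1 gene differ in sign on several arrays.

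The complex that holds Aqp4 at the endfoot, made of dystrophin-associated proteins and the laminin and agrin they bind, and the potassium channel Kcnj10 beside it gave 6 tested genes of 9 listed. In early pubertal animals 1 was higher and 5 lower than in juveniles, in late pubertal animals 2 were higher and 4 lower, and 0 were called. Dtna, the dystrobrevin of the complex, stood at −0.21 ± 0.11 and −0.0051 ± 0.11. Dag1, dystroglycan, stood at −0.08 ± 0.09 and −0.09 ± 0.09. Lama2, a laminin chain, stood at −0.21 ± 0.17 and 0.24 ± 0.17, and Utrn, utrophin, at −0.11 ± 0.16 and −0.33 ± 0.16. Kcnj10 stood at 0.22 ± 0.22 and 0.11 ± 0.22.

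Ntsr2 (1368688_at; chr6:45153095-45159783) encodes the low-affinity neurotensin receptor, which in the brain is found mostly on astrocytes. Its level was 11.36, 11.31 and 11.34 in juvenile, 11.45, 11.31 and 11.40 in early pubertal and 11.47, 11.51 and 11.51 in late pubertal arrays. After normalization the 3 late pubertal arrays lay above all 6 others, and early pubertal and juvenile arrays overlapped. The deposited signals were 3065, 2583 and 2498, then 2706, 2256 and 2368, then 2764, 2948 and 3309, so there juvenile replicate 1 lay above 2 of the 3 late pubertal arrays. After median centring late pubertal arrays overlapped with both other stages. Its spread within stages was at the 1.39th percentile of tested probe sets of all levels, with no ranking among equally bright ones. Other bright marker probe sets stood at 1.87 (Aqp4 1372190_at), 2.92 (S100b), 19.3 (Aldoc), 19.9 (Gfap) and 26.4 (Gja1 1372002_at). The stage means of Ntsr2 were 11.34 ± 0.02, 11.39 ± 0.07 and 11.50 ± 0.02 (SD, n = 3). Late pubertal minus juvenile, the log2 difference was 0.16 (SE 0.05, 95% interval 0.04 to 0.28), a fold of 1.12, and the adjusted p in limma was 0.9998. Leaving out any single array kept it between 0.15 and 0.17. Late minus early pubertal it was 0.11 (95% interval −0.01 to 0.23), with an adjusted p of 0.914 in limma. Early pubertal minus juvenile it was 0.05 (−0.07 to 0.17), 0.02 without early pubertal replicate 7, 0.09 without early pubertal replicate 8, and −0.15 at the deposited level.

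The ligand and the other receptors of neurotensin gave 3 tested genes. Nts, the precursor of neurotensin, stood 0.34 ± 0.12 (SE) higher in early pubertal than in juvenile animals and 0.0018 ± 0.12 higher in late pubertal animals. Ntsr1, the high-affinity receptor of neurons, stood at 0.29 ± 0.26 and −0.28 ± 0.26, and Sort1, the sorting receptor sortilin that also binds neurotensin, at −0.10 ± 0.10 and −0.08 ± 0.10. Of these 3 genes, 0 were called, and their median early pubertal difference of 0.29 was 0.03 at the deposited level.

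S100b (1386903_at; chr20:12372345-12381159) encodes a calcium-binding protein of astrocytes that is also found in oligodendrocytes. Its level was 12.59, 12.44 and 12.60 in juvenile, 12.64, 12.65 and 12.63 in early pubertal and 12.60, 12.66 and 12.65 in late pubertal arrays. All early pubertal arrays lay above the juvenile arrays after quantile normalization, though not at the deposited level or after median centring, late pubertal replicate 12 did not, and juvenile replicate 2 was the lowest of the 9. The stage means were 12.54 ± 0.09, 12.64 ± 0.01 and 12.64 ± 0.04 (SD, n = 3). The differences from juveniles were 0.10 (95% interval −0.01 to 0.21) and 0.10 (−0.01 to 0.20). Without juvenile replicate 2 they were 0.05 and 0.04, and at the deposited level the early pubertal value was −0.02.

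Of the other S100 proteins and their receptor Ager, 7 of 8 listed genes were tested and 0 called. Early pubertal minus juvenile 6 were higher and 1 lower, with a median of 0.18 (2, 5 and −0.09 at the deposited level), and late pubertal minus juvenile 5 were higher and 2 lower, with a median of 0.17. S100a1, the calcium-binding protein that pairs with S100b, stood at 0.37 ± 0.10 (SE) and 0.26 ± 0.10. S100a11 stood at 0.26 ± 0.16 and 0.20 ± 0.16, and S100a6 at 0.22 ± 0.15 and 0.17 ± 0.15. S100a4 was the least steady, at −0.12 ± 0.53 and 0.38 ± 0.53. Over the 9 arrays the list's median deviation had an r of 0.15 with S100b and 0.88 with Gfap.

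Aldoc (1386998_at; chr10:63715544-63719133) encodes aldolase C, the brain form of a glycolytic enzyme, found in astrocytes. Its level was 12.10, 11.85 and 12.07 in juvenile, 12.07, 12.27 and 12.07 in early pubertal and 12.04, 12.08 and 12.08 in late pubertal arrays. Juvenile replicate 2 was the lowest and early pubertal replicate 8 the highest, the other 7 lay between 12.04 and 12.10, and all stages overlapped. The differences from juveniles were 0.13 (95% interval −0.03 to 0.29) and 0.06 (−0.10 to 0.22). Without juvenile replicate 2 they were 0.05 and −0.02, and at the deposited level the early pubertal value was −0.02. Juvenile replicate 2 and early pubertal replicate 8 had beta-actin ratios of 3.16 and 2.14, the latter the lowest of the 9 arrays, and over all arrays Aldoc had an r of −0.73 with the log2 ratio. The limma slope with stages in the fit was −0.35 ± 0.13 (SE), with an adjusted p of 0.425.

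Glycolytic enzymes gave 13 tested genes of 16 listed, with 10 higher and 3 lower early pubertal minus juvenile, 5 higher and 8 lower late pubertal minus juvenile, and 1 higher and 12 lower late minus early pubertal. The medians were 0.02, −0.0060 and −0.05 and 0 were called. At the deposited level all 13 were lower in the first comparison (median −0.13) and all 13 higher in the third (median 0.13). The second median there was 0.0076, and the medians of all tested probe sets were −0.24, −0.02 and 0.22. Aldoc followed this list from array to array, with an r of 0.91 with the list's median deviation over the 9 arrays. Eno1, the enolase found in glia, was the gene most like Aldoc (r = 0.98) and differed from juveniles by 0.10 ± 0.07 (SE) and 0.05 ± 0.07. Pfkm, a phosphofructokinase, stood at 0.16 ± 0.07 and 0.10 ± 0.07, and Eno2, the enolase of neurons, at −0.08 ± 0.06 and −0.11 ± 0.06.

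The 8 genes varied together only in part. Of 28 pairs at the brightest probe sets, 19 had a positive Pearson r over the 9 arrays, with a median of 0.43 and a range from −0.38 to 0.85. After each stage's mean was removed 14 were positive, with a median of 0.11. Gfap and Aldh1l1 had an r of 0.85, and 0.71 within stages. S100b and Aldoc had an r of 0.80 both ways, Gjb6 and S100b 0.77 and 0.59, and Gfap and Aqp4 0.69 and 0.72. Other pairs ran apart within stages, such as Aqp4 with Gjb6 at −0.72 and Gfap with Aldoc at −0.66. Aqp4 stands here at 1372190_at, which had an r of −0.81 with Aqp4 1387397_at, so its values hold for that probe set only. With the log2 beta-actin ratio, r was 0.78 for this probe set, 0.46 for Gfap, 0.48 for Gja1 and 0.20 for Ntsr2. It was 0.08 for Aldh1l1, −0.46 for S100b, −0.47 for Gjb6 and −0.73 for Aldoc. The part of this ratio in the pairs was not tested. The arrays share a platform and a normalization, each point is 1 animal, and with 9 points such values describe these arrays only.

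**Figure D4:**
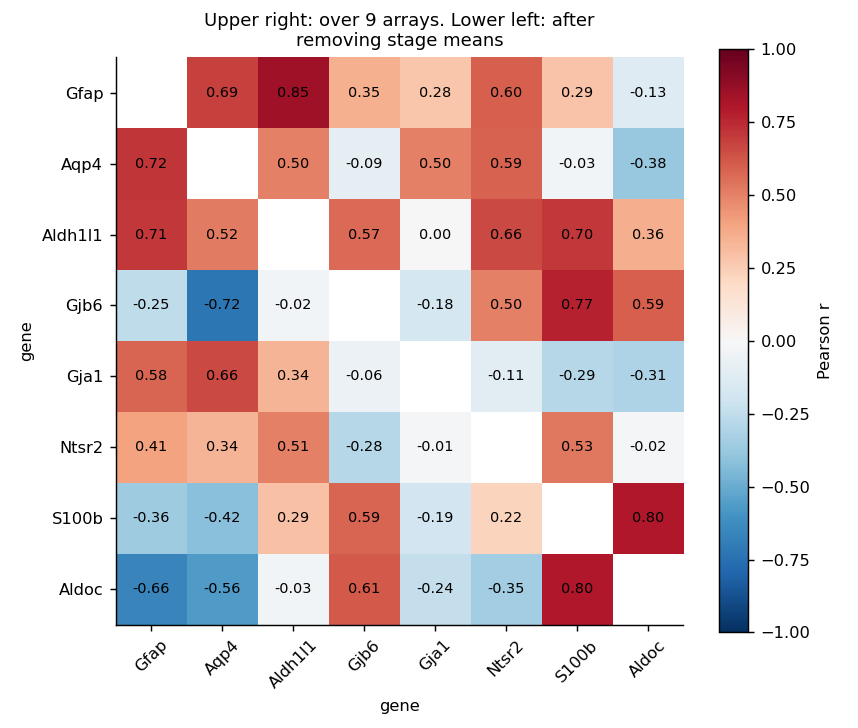
Pearson r between the log2 levels of the 8 genes at their brightest probe sets, over the 9 arrays (upper right) and after each stage's mean was removed (lower left). Gfap with Aldh1l1 and S100b with Aldoc stay high both ways at 0.85 and 0.71 and at 0.80 and 0.80. The r of Aqp4, at 1372190_at only, with Gjb6 goes from −0.09 to −0.72.

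The mean deviation of the 8 genes was −0.05, −0.11 and −0.09 in the juvenile arrays, −8.4e-05, 0.02 and 0.08 in the early pubertal arrays and −0.01, 0.07 and 0.11 in the late pubertal arrays. The 3 juvenile arrays were the lowest, with 1, 2 and 1 of 8 genes above their own mean, and on late pubertal replicate 20 all 8 were above. Without juvenile replicate 2 the genes' median early pubertal difference was 0.05 in place of 0.12. Over all 9 arrays the tested genes most like this mean profile were Adamts10 (r = 0.96), Aimp1 (0.95), Axl (0.93), Hacl1 (0.93) and Sult1a1 (0.93). The genes most like single members included Omd (0.97), Fuca1 (0.96) and Lcat (0.95) for Gfap, Col8a2 (0.92) for Aldh1l1, Sgk1 (0.93) for Gjb6, Cfap36 (0.95) for Ntsr2, Stt3b (0.91) for Gja1, Btbd1 (0.97) for Aqp4 and Sdhaf3 (0.96) for S100b. These are the closest of 10600 tested genes over 9 arrays, with each member at its brightest probe set.

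A longer list of other astrocyte genes was split between higher and lower. Of 30 listed genes 25 were tested, with 12 higher and 13 lower in each comparison with juveniles, medians of −0.0046 and −0.0061, and 0 called. At the deposited level 3 were higher and 22 lower early pubertal minus juvenile (median −0.16). Late pubertal minus juvenile 14 were higher and 11 lower there (median 0.02), and the medians of all tested probe sets were −0.24 and −0.02. After centring 16 and 13 of the 25 were higher, with medians of 0.05 and 0.0047. The difference between this list and the 8 markers was not tested. The transporters that clear glutamate, Slc1a2 and Slc1a3, stood at 0.33 ± 0.32 (SE) and −0.05 ± 0.05 early pubertal minus juvenile and at 0.07 ± 0.32 and −0.07 ± 0.05 late pubertal minus juvenile. Glul, the glutamine synthetase of astrocytes, stood at 0.02 ± 0.06 and 0.06 ± 0.06. Clu and Apoe, secreted lipid carriers of astrocytes, stood at 0.09 ± 0.05 and 0.09 ± 0.05 in the early and at 0.09 ± 0.05 and 0.07 ± 0.05 in the late comparison, and Gpr37l1, a receptor of astrocytes, at −0.03 ± 0.15 and −0.38 ± 0.15. Ttyh1 stood at −0.10 ± 0.07 and 0.02 ± 0.07, and Cldn10 at 0.10 ± 0.13 and −0.12 ± 0.13. The list's median deviation per array had an r of −0.32 with Gfap and 0.80 with Aldoc.

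Genes of reactive astrocytes, which respond to injury and inflammation, gave 10 tested of 17 listed. In early pubertal animals 8 were higher and 2 lower than in juveniles (median 0.09, and −0.13 at the deposited level), in late pubertal animals 7 were higher and 3 lower (median 0.18), and 0 were called. Cp, the copper carrier ceruloplasmin, stood at 0.28 ± 0.17 (SE) and 0.24 ± 0.17. Cd44, a receptor for hyaluronan, stood at 0.36 ± 0.25 and 0.28 ± 0.25, and Stat3, the transcription factor of the reactive response, at 0.07 ± 0.12 and 0.21 ± 0.12. Lcn2 and Serpina3n, defining genes of reactive astrocytes, were below the level tested. Gfap had an r of 0.91 with this list's median deviation over the 9 arrays, and both lists and Gfap come from the same arrays.

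Markers of leptomeninges and fibroblasts, the membranes over the brain, moved with Gfap. All 9 listed genes were tested, 9 were higher in early pubertal (median 0.19, but 3 of 9 and −0.07 at the deposited level) and 9 in late pubertal animals (median 0.32) than in juveniles, and 0 were called. Their median deviation ran from −0.23 to 0.09 in juvenile, from −0.21 to 0.33 in early pubertal and from 0.02 to 0.21 in late pubertal arrays, with an r of 0.90 with Gfap, 0.59 with Aldh1l1, 0.55 with Ntsr2, 0.33 with Gjb6 and −0.40 with Aldoc. Fmod, a fibroblast proteoglycan, stood 0.40 ± 0.12 (SE) higher and Dcn, the proteoglycan decorin, 0.41 ± 0.15 higher in late pubertal than in juvenile animals. Omd, the gene most like Gfap, encodes a proteoglycan of the same family as Fmod. The part of these membranes in the Gfap levels was not tested.

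Neuron markers gave 11 tested genes. Of these, 7 were lower in early pubertal (median −0.06) and 10 in late pubertal animals (median −0.14) than in juveniles, and 0 were called. Without normalization, at the deposited level, 11 and 9 of the 11 were lower. Their medians were −0.29 and −0.15, beside −0.24 and −0.02 over all tested probe sets. Their median deviation ran from −0.10 to 0.13 in juvenile, −0.05 to 0.23 in early pubertal and −0.10 to −0.03 in late pubertal arrays. It had an r of −0.64 with Gfap, −0.61 with Aqp4 1372190_at and 0.74 with Aldoc. Slc32a1, the vesicular GABA transporter, stood at −0.06 ± 0.10 (SE) and −0.40 ± 0.10. Microglia markers, 8 tested of 10, were higher for 5 and lower for 3 early pubertal minus juvenile (median 0.09) and higher for 1 and lower for 7 late pubertal minus juvenile (median −0.19). The 7 oligodendrocyte markers had medians of 0.04 and 0.0050, the 4 markers of oligodendrocyte precursors −0.06 and −0.06, the 7 endothelial markers 0.10 and 0.02, the 4 tanycyte and ependymal markers 0.06 and 0.16, and the 3 choroid plexus markers 0.06 and 0.15, with 0 called in any. At the deposited level the early pubertal median was negative for microglia (−0.17), oligodendrocyte (−0.10), endothelial (−0.16), tanycyte (−0.19) and choroid plexus markers (−0.17), and the late pubertal endothelial median was −0.01. The part of tissue composition in the marker levels was not tested.

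**Figure D5:**
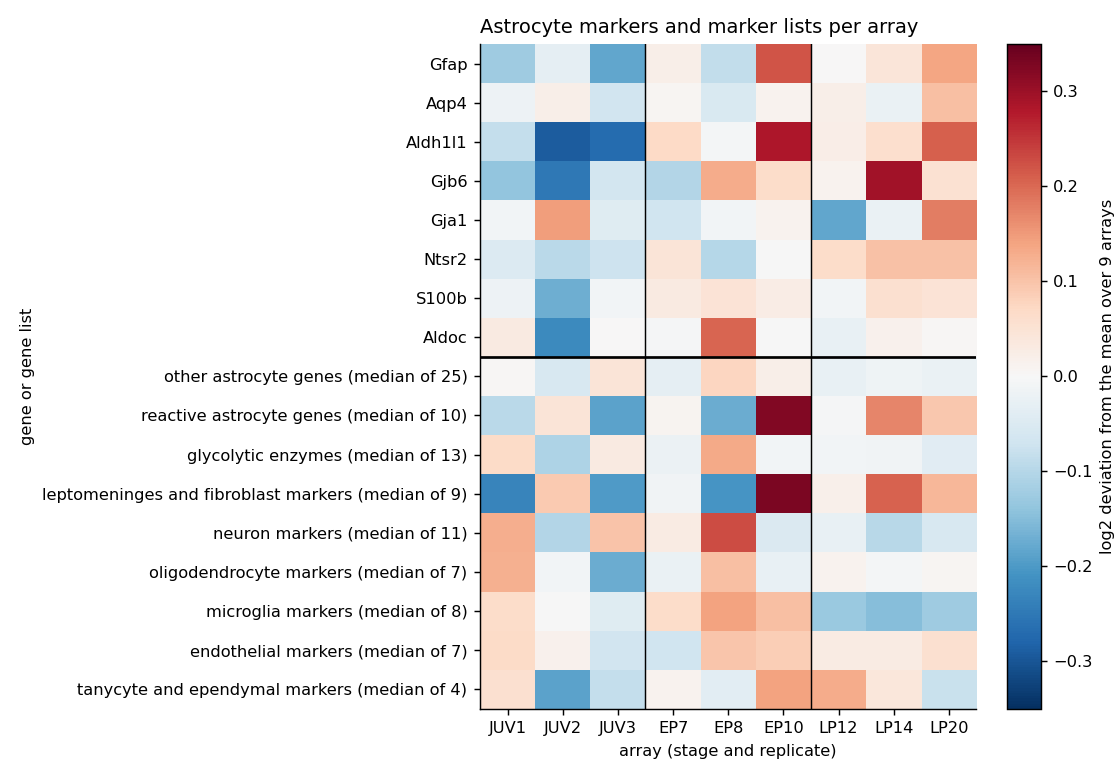
Deviation from the mean over the 9 arrays (log2, colour) of each of the 8 genes at its brightest probe set and of the median of each of 9 gene lists, per array and by stage. Gfap and the leptomeningeal list are darkest on the same array, early pubertal replicate 10. There the log2 level of Gfap is 12.38 and the list's deviation is 0.33, while the list of other astrocyte genes stays within 0.08 of 0 on all arrays.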

How the data were processed

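RNA from 9 hypothalami was hybridised to single-channel Affymetrix rat arrays. The deposited values are linear signal intensities of probe sets that the authors computed with MAS5, per the submitters' processing notes. The version of MAS5, its target level and any masks: not given in the sources used here. Per the labels, cDNA was primed with oligo-dT, so signal near the 3′ end depends least on RNA completeness. No batch or pairing is named in the labels, and each array is 1 animal.

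Of 31099 probe sets, 57 controls were left out. The platform annotation gives 20826 of the others 1 gene symbol, 436 several and 9780 none. All 8 genes matched a GRCr8 record by Entrez identifier, and promoter sequences are RefSeq's on GRCr8. Intensities were taken as log2(signal + 16), which understates changes of dim probe sets, and quantile-normalized. The 18625 probe sets with a mean above the 40th percentile went into a limma 3.58.1 fit (R 4.3.3). The fit had 1 mean per stage, a trended prior (degrees of freedom 5.80 prior, 6 residual) and two-sided tests, and p-values were Benjamini-Hochberg adjusted within each comparison at 0.05. The script was tested on simulated data. In lists, each gene stood at its brightest tested probe set.

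Named were all member probe sets, up to 4 genes per list by smallest F p, any gene of the lists of filament partners, connexins, aquaporin anchoring, S100 and neurotensin, the 5 genes most like the members' mean profile and the 3 most like each member. Slc1a2, Slc1a3 and Glul were added after their values were seen, and Apoe was named outside these rules. The members and lists were chosen with earlier results of these data known. Alternatives were constants of 1 and 64, the deposited level, median centring, no filter or a 60th percentile filter, an untrended or a robust prior, array weights, only the 6 arrays compared, 1 probe set per gene and leaving out each array. The beta-actin ratio as a covariate, and the gene lists and stage separations under other scalings, were chosen after seeing the data.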

Additional observations from a re-analysis of the deposited data

How the results depend on the processing

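No marker probe set was called by limma under any alternative. Of 681 alternative values of single probe sets, 634 kept their direction, 47 reversed and 0 were called, with a smallest adjusted p of 0.253. Changing the filter or the prior, 1 probe set per gene and fitting only the arrays compared cannot alter a log2 difference. Values under these settings are among the 634 by construction. Leaving out an array of the stage not compared hardly moved Gfap early pubertal minus juvenile (0.164 to 0.166, beside 0.165). The count of 634 therefore overstates how steady the directions were. Over all probe sets the counts called, 0 in the reported fit, became 10 (early pubertal minus juvenile), 1 (late pubertal minus juvenile), 21 (late minus early pubertal) and 16 (any stage) at the deposited level, 1 with array weights (late pubertal minus juvenile), and 0 to 1 when single arrays were left out (late pubertal minus juvenile and any stage). The genes' median early pubertal difference was −0.0387 at the deposited level, 0.173 after median centring, 0.0662 with array weights, and 0.0479 to 0.143 leaving out single arrays. Between the pubertal stages it was 0.188 at the deposited level, −0.0364 after centring and −0.0222 to 0.0613 leaving out single arrays, and late pubertal minus juvenile it stayed between 0.112 and 0.146.

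Early pubertal minus juvenile, the deposited level reversed Gjb6 (−0.0579), Ntsr2 (−0.150), Aqp4 1368981_at (−0.0518) and 1372190_at (−0.114), S100b (−0.0192) and Aldoc (−0.0194), and centring reversed Gja1 1372002_at (0.0686). Late pubertal minus juvenile, the deposited level reversed Gja1 1372002_at (7.23e-05). Late minus early pubertal, centring reversed Gfap (−0.0587), Aqp4 1368981_at (−0.0130) and 1372190_at (−0.00515) and Gja1 1372002_at (−0.0808). Array weights reversed Gfap (−0.0377) and Aqp4 1368981_at (−0.0422), the deposited level Aldh1l1 (0.210), S100b (0.157), Aldoc (0.106) and Aqp4 1387397_at (0.168), and the beta-actin covariate Gfap (−0.0350), Gja1 1372002_at (−0.0191) and S100b (0.0140). The cause was not tested. At the deposited level the median of all tested probe sets was itself −0.24 early pubertal minus juvenile and 0.22 late minus early pubertal.

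Leaving out single arrays, early pubertal minus juvenile ran from −0.673 to 0.125 (Gja1 1369640_at), −0.0905 to 0.00278 (Gja1 1372002_at), −0.0135 to 0.0302 (Aqp4 1372190_at) and −0.0900 to 0.0930 (Aqp4 1387397_at). Late pubertal minus juvenile ran from −0.137 to 0.0453 (Gja1 1372002_at), −0.0189 to 0.109 (Aldoc) and −0.153 to 0.0303 (Aqp4 1387397_at). Late minus early pubertal ran from −0.0608 to 0.0902 (Gfap), −0.0796 to 0.0658 (Aldh1l1), −0.165 to 0.116 (Aqp4 1368981_at), −0.0831 to 0.0988 (Gja1 1372002_at), −0.0159 to 0.0175 (S100b), −0.103 to 0.000319 (Aldoc) and −0.120 to 0.0122 (Aqp4 1387397_at). No paired analysis was possible because each array is 1 animal and the labels name no pairing. With 3 arrays per stage, the number of arrays limits the precision.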
